A study of Mus musculus with 18 samples.

Results

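The probe sets described here averaged below 50 units in testes of 17 and 22 days. In a fraction of adult testes they averaged 150 units or more, although other probe sets of some of the same genes gave signal earlier. The selection holds 42 probe sets for 42 genes, of 20380 probe sets that name a single gene (12393 genes). A probe set is the group of short probes on an array that reads a transcript. The members were chosen by their group means of 3 arrays on the linear scale: below 50 intensity units in both gradient fractions at 17 days and at 22 days, and at least 150 in the RNP or the polysome fraction of adults. The rule leaves out Agt, Ptgds, Lcn2, Apoc1, Thrsp, Cdkn1c and the Klk1b genes by name, which removed 7 further probe sets. Since these levels chose the members, their rise with age is given as a description, with no test. The comparison that the rule did not fix is that between the adult RNP and polysome fractions, except that 150 units had to be reached in either of them.

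All testes came from CD1 mice, an outbred strain, and there were 3 arrays for each fraction and age, 18 in all: polysome and RNP at 17 days, at 22 days and in adults. No treatment or genetic change is named, and the labels call the replicates biological without saying how many animals each held. Cytoplasmic extracts were spun through gradients of 10 to 30% sucrose that gave 17 fractions. RNPs, RNA and protein particles that sediment slowly, were taken from fractions 2 to 8, and polysomes, messenger RNAs that carry several ribosomes, from fractions 11 to 17. Arrays were scaled to a common trimmed mean of 150 to 150.1 units, so a difference between fractions is relative to the remaining RNA of each fraction and not an amount per testis. Array medians ran from 42.8 to 59.5 units.

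In the young testis germ cells advance together through the first wave of spermatogenesis, and spermatids, the haploid cells that are remodelled into sperm, appear late in it. Elongating spermatids stop transcription while their chromatin is compacted, so many of their messenger RNAs are made early, kept in RNPs and translated later. Leydig cells, the testosterone-making cells between the tubules, are replaced by an adult generation over the same period. In whole testis RNA, fewer cells of a type and less RNA per cell cannot be told apart.

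RefSeq promoter windows (assembly GRCm38.p6) were found for 34 of the 42 genes, as 50 windows. The 250 bases upstream of the start are printed 5′ to 3′ on the gene's strand for 4 members, chosen to show an RNP-side long noncoding RNA, an RNP-side nudix gene, a liver-type enzyme with the core promoter letters, and a polysome-side Leydig cell enzyme. Capitals mark TGACG (the core of the cyclic AMP response element, bound by the spermatid activator CREM), TATAAA and CCAAT on either strand.
1700120B22Rik, chr10:63244154-63244403, minus strand: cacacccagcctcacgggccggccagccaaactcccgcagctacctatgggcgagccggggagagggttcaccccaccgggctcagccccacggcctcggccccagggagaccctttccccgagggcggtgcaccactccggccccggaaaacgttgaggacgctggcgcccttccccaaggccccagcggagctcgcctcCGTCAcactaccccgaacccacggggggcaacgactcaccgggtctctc
Nudt16l2, chr9:105145083-105145332, minus strand: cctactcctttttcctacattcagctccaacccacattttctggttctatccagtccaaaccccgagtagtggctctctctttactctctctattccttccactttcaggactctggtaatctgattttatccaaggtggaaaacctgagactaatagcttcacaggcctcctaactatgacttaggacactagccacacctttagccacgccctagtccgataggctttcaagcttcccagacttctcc
Cyp2a12, chr7:27028840-27029089, plus strand: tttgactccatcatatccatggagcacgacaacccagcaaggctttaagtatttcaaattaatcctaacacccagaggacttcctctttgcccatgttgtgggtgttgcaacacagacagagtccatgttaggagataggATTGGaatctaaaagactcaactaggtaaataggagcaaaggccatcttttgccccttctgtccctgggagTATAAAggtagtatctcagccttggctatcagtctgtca
Sult1e1, chr5:87591612-87591861, minus strand: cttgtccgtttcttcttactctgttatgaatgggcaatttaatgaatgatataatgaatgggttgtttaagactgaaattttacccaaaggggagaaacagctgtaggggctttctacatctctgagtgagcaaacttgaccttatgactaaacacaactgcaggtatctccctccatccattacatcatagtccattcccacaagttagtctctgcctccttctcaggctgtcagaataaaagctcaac

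TGACG was in 8 of the 50 member windows (16%), against 17.8% of all 32851 windows, and at position -49 from the start in 1700120B22Rik. The longer TGACGTC, which contains TGACG, was in 1 window, that of Retreg1 (2%, against 2.78% of all windows). TATAAA was in 2 windows (4%, against 12.4%), at position -39 in Cyp2a12 and at -181 in 1 of 3 windows of Cntn1. CCAAT was in 17 (34%, against 33.8%) and GGGCGG, the GC box, in 23 (46%, against 32.7%). Windows of the same gene overlap in part, so these counts are a description. The median window held 57.4% G and C in members and 52.4% in the table.

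By the rule, the members' group means lay below 50 units at 17 and 22 days. This limit is near the 50th percentile of all values (51.6 units), so it does not show absence. The median over the 42 members ran from 11.6 to 30.1 units across the 12 early arrays. In adult RNPs it was 180.75, 169.25 and 149.45 units in replicates 1, 2 and 3, and on adult polysomes 117.95, 101.45 and 109.95 units. The members' medians were higher in each adult RNP array than in any adult polysome array. At least 150 units were reached by 28, 26 and 21 members in the adult RNP arrays and by 17, 16 and 12 members in the polysome arrays.

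**Figure D1:**
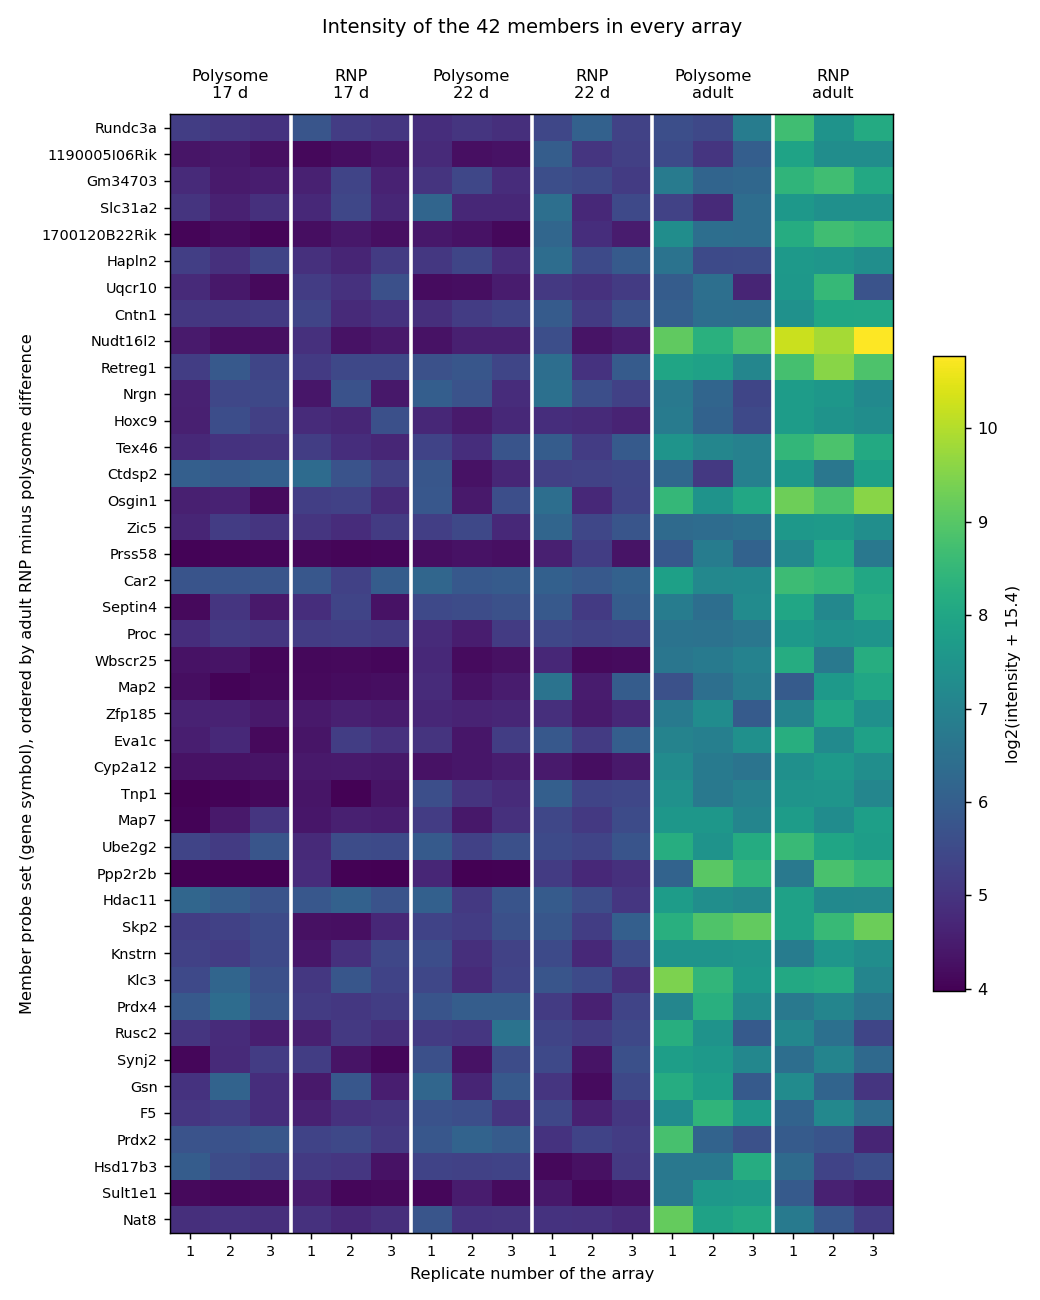
Heat map of log2(intensity + 15.4) for the 42 members (rows, ordered by the adult RNP minus polysome difference) in the 18 arrays (columns, 3 replicates per fraction and age). The 12 early columns are dark because the rule required it; in adults the upper rows are brighter in RNPs and the lowest rows brighter on polysomes.

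The early signal was not spread evenly over the arrays. Single values of 50 units or more made up 26 of the 504 member values at 17 and 22 days, and 10 of those came from RNP replicate 1 of 22 days, while RNP replicates 2 and 3 of that age had 1 each. The 10 were Map2 (78.8 units), Nrgn (73.9), Slc31a2 (73.3), Osgin1 (71.6), Retreg1 (71.5), Hapln2 (69.3), 1700120B22Rik (59.7), Zic5 (57.9), Car2 (51.3) and Tnp1 (50.6). The members' median at 22 days was 30.05, 18.2 and 25.65 units in RNP replicates 1, 2 and 3. The summed signal of 12 probe sets for genes of spermatid chromatin condensation, both Tnp1 probe sets among them, had the same order there, at 13387.7, 1186.1 and 7142.8 units. Their part in the members' early signal was not tested.

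**Figure D2:**
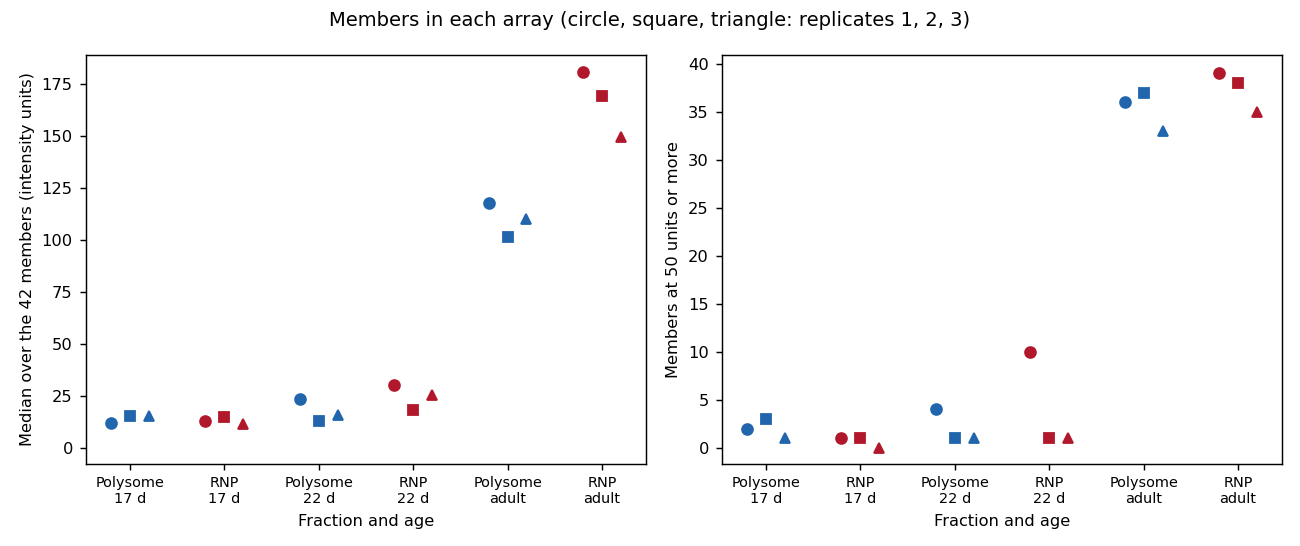
Left, the median intensity over the 42 members in each array; right, how many members reached 50 units. Circles, squares and triangles are replicates 1, 2 and 3, blue polysomes and red RNPs; RNP replicate 1 of 22 days stands out among the early arrays with 10 members.

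In adult testes, 23 of the 42 members were higher in RNPs and 6 higher on polysomes (limma, adjusted p under 0.05), and 13 did not pass. The background was 12.6% of 14066 tested probe sets higher in RNPs and 25.9% higher on polysomes. Among the 6309 named probe sets that reached 150 units in an adult fraction, whatever their early level, it was 20.4% and 27.8%. The median log2 difference, RNP minus polysome, was 0.88 over the members, -0.17 over all tested probe sets and -0.07 over those 6309. All 42 members passed the intensity filter. Prdx2 needed a 22-day polysome array (55.6 units) for this, and the other members passed through their adult arrays. Some passed only through the fraction where they were called higher. Sult1e1 was above the filter value of 51.6 units only on adult polysomes, and 1190005I06Rik only in adult RNPs. The tests of such members are therefore not independent of the high level on that side.

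These counts depend on the rule, which favours a difference in members that reached 150 units in only 1 fraction. Of the 22 that reached it only in RNPs, 19 were called higher there, and of the 10 that reached it only on polysomes, 6 were called higher there. Of the 10 that reached it in both, 4 were higher in RNPs (Nudt16l2, Retreg1, Osgin1 and Car2) and 6 did not pass (Map7, Ube2g2, Ppp2r2b, Hdac11, Skp2 and Klc3), with a median of 0.18. Most of the calls therefore belong to members whose difference the rule helped to choose.

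The split of all calls depended on scaling, with RNP calls at 32.7% as deposited, 45.3% after quantile normalization and 50.7% after median centring, which moved the median of all probe sets by 0.17 and 0.21. Of the members, 24 and 4 were then called in RNPs and on polysomes under either scaling. The shares of all tested probe sets were 16.7% and 20.2% after quantile normalization and 19.4% and 18.8% after median centring. With the replicate pair as a block the member counts were 24 and 10, and 19% and 34.3% of all tested probe sets were called.

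**Figure D3:**
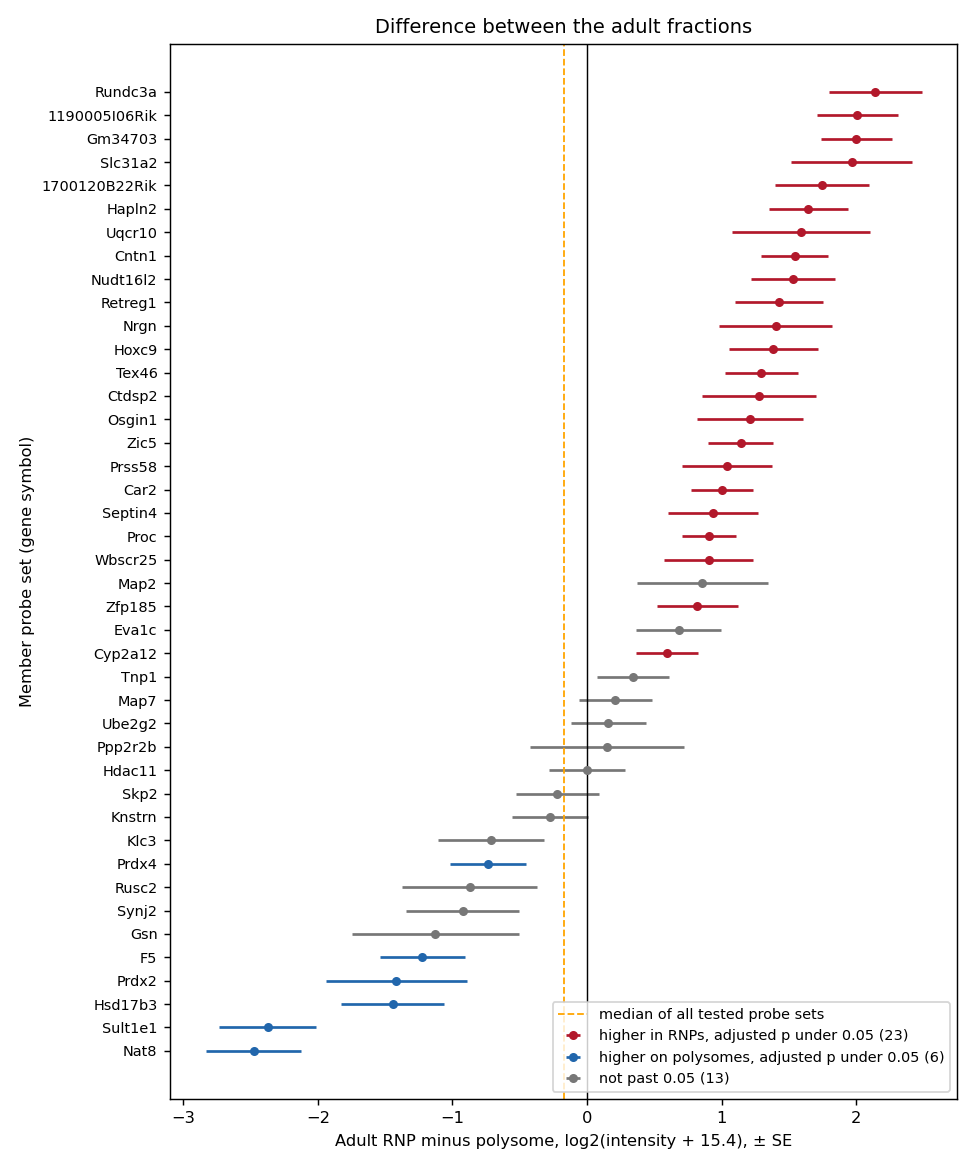
Difference between adult RNPs and polysomes on the log2(intensity + 15.4) scale for each member, with its SE from the limma model (n = 3 arrays per fraction). Red points (23) passed the threshold on the RNP side and blue points (6) on the polysome side; grey points (13) did not pass, and the dashed line is the median of all tested probe sets at -0.17.

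Among members with products of spermatids and sperm, Septin4 and Prss58 were higher in RNPs and Tnp1 and Klc3 did not pass. Septin4, Prss58 and Tnp1 reached 150 units only in RNPs. Septin4 (1455422_x_at), a filament protein of the ring between the parts of the sperm tail, was at 240.5, 126.3 and 277 units in the RNP arrays of replicates 1, 2 and 3 and at 97.8, 71.5 and 138.7 on polysomes, a log2 difference of 0.94 ± 0.34 (SE, adjusted p = 0.0347). The ranges overlapped, but RNPs were higher in each of the 3 pairs of arrays with the same number. Prss58, a serine protease gene, was at 129.7, 245.2 and 87.6 units in RNPs and at 41.9, 98.7 and 53.4 on polysomes (1.04 ± 0.33, adjusted p = 0.02). It too was higher in RNPs in each pair, with overlapping ranges.

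Tnp1 codes for a transition protein that replaces histones in spermatids. Its member probe set (1438632_x_at) was at 163.8, 168.3 and 121.5 units in adult RNPs and 154.7, 89.6 and 109.4 on polysomes (0.34 ± 0.27, adjusted p = 0.33). Klc3, a kinesin light chain of the sperm tail midpiece, was at 672.3, 332 and 182.2 units on polysomes and at 257.3, 276.2 and 119.3 in RNPs (-0.71 ± 0.39, adjusted p = 0.158). Each polysome array of Klc3 was above its RNP partner, and with the pair as a block it passed (adjusted p = 0.0237), as it did without polysome array 3 (0.0314).

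The 5 members without a stated role, 3 of them noncoding, were all higher in adult RNPs, against 12.6% of all tested probe sets. All 5 reached 150 units only in RNPs, where 19 of 22 members of any role were called higher. The rule thus helped to choose their side. RefSeq lists 3 of the 42 genes as long noncoding RNAs, Gm34703, 1700120B22Rik and Wbscr25. Gm34703 (1449593_at) was at 330.5, 400.1 and 257 units in adult RNPs and at 96.7, 56.6 and 60.1 on polysomes, a 4.01-fold difference (2.00 ± 0.27, adjusted p = 2.41e-05). The 1700120B22Rik RNA, whose promoter is printed above, was at 273.7, 397.7 and 352.5 units in RNPs and at 143.1, 71 and 70 on polysomes (1.74 ± 0.35, adjusted p = 0.0008). For both RNAs every RNP array was above every polysome array. Wbscr25 was at 274.7, 89.4 and 280.1 units in RNPs and at 84.1, 93 and 111.9 on polysomes (0.90 ± 0.33, adjusted p = 0.039), so that RNP array 2 lay among the polysome arrays.

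The protein-coding 1190005I06Rik was at 227.6, 144 and 144.3 units in RNPs and at 29.7, 17.4 and 48.8 on polysomes (2.01 ± 0.30, adjusted p = 7.18e-05). Tex46 was at 342.1, 447.9 and 259.9 units in RNPs and at 165, 120.3 and 110.5 on polysomes (1.30 ± 0.27, adjusted p = 0.00119). Neither gene's adult fractions overlapped.

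Members of metabolism, transport and redox control divided by side, with 5 of 8 called for RNPs and 3 for polysomes. Of all tested probe sets, 12.6% and 25.9% had these calls. Slc31a2 and Uqcr10 reached 150 units only in RNPs, and Nat8, Prdx2 and Prdx4 only on polysomes. For these members the rule thus helped to choose the side. Nudt16l2, Osgin1 and Car2 reached 150 units in both fractions. Nudt16l2 (1419337_at) is named for the nudix hydrolases, which cleave nucleoside diphosphates linked to another group. It was at 1189.7, 916.5 and 1740 units in adult RNPs and at 541.8, 295.8 and 456.9 on polysomes. Over the 12 early arrays it ran from 3.8 to 33 units, with a median of 6.5. Its adult fractions did not overlap, and it was 2.89-fold higher in RNPs (log2 1.53 ± 0.31, adjusted p = 0.000948).

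Also on the RNP side were Slc31a2, a low-affinity copper transporter (1.97 ± 0.45), Uqcr10, a small subunit of respiratory complex III (1.59 ± 0.52), Osgin1, an oxidative stress response gene (1.21 ± 0.39), and Car2, carbonic anhydrase 2 (1.001 ± 0.23). Osgin1 was at 605.2, 438 and 742.6 units in RNPs and at 346.1, 163.2 and 251.9 on polysomes, without overlap. Car2 was at 385.4, 339.9 and 252.6 units in RNPs and at 213.8, 126.2 and 131.3 on polysomes, again without overlap. Slc31a2 was at 180.1, 151 and 152.7 units in RNPs and at 24.3, 12.1 and 68.6 on polysomes, with every RNP array higher. Uqcr10 varied widely between replicates, at 179.1, 357.3 and 37.4 units in RNPs and 46.4, 72.9 and 10.3 on polysomes, so that replicate 3 was lowest in both fractions.

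The polysome side of this group held Nat8, an acetyltransferase of the endoplasmic reticulum, and both peroxiredoxins, enzymes that break down peroxides. Nat8 (1419520_at) was at 556.2, 224.5 and 262 units on polysomes and at 93.2, 41.5 and 20.3 in RNPs, 5.57-fold higher on polysomes (log2 RNP minus polysome -2.48 ± 0.35, adjusted p = 4.63e-05). Its fractions did not overlap. Prdx4, the secretory pathway peroxiredoxin, was at 122.1, 293.9 and 137.1 units on polysomes and at 90.8, 119.7 and 82 in RNPs (-0.74 ± 0.28, adjusted p = 0.0457), every polysome array being higher. Prdx2, a cytosolic peroxiredoxin, owed its membership to polysome array 1, at 426.3 units, while the other polysome arrays were at 54.8 and 35.4 and the RNP arrays at 45.2, 38.2 and 10.1 (-1.42 ± 0.52, adjusted p = 0.0392). Its fractions overlapped, and without polysome array 1 the difference was -0.45 (adjusted p = 0.253).

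Both members of sex steroid metabolism were on the polysome side. They reached 150 units only there, so the rule helped to choose that side. Sult1e1 (1420447_at), the sulfotransferase by which Leydig cells inactivate estrogen, was at 90.3, 178.5 and 190.6 units on adult polysomes and at 44.1, 9 and 5.5 in RNPs. The 12 early arrays lay between 1.7 and 7.1 units. The adult fractions did not overlap, and the level was 5.18-fold higher on polysomes (-2.37 ± 0.36, adjusted p = 7.63e-05). Hsd17b3 (1421671_at), which makes testosterone from androstenedione, was at 88.2, 88.9 and 274.7 units on polysomes and at 64.2, 25.2 and 32.8 in RNPs (-1.44 ± 0.38, adjusted p = 0.00643), without overlap. Without polysome array 3, its highest, the adjusted p was 0.0514. Cyp2a12, a cytochrome P450 best known from liver, lay on the other side, at 151.1, 185.5 and 146.6 units in RNPs and 137, 92.6 and 80.2 on polysomes (0.59 ± 0.23, adjusted p = 0.0466). With the pair as a block it did not pass (0.0535).

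Leydig cell markers as a list shared the polysome side. Of 26 tested probe sets for 18 of the list's genes, 18 were higher on polysomes, Sult1e1 and Hsd17b3 included, and 0 were higher in RNPs by limma, also at an unadjusted p under 0.05. Their median difference was -1.62. The list's summed signal over 33 probe sets was 9514.8 to 14476.6 units on adult polysomes, 2053.1 to 3102.7 in adult RNPs, 3428.5 to 5334 on 22-day polysomes and 3478 to 4210.4 on 17-day polysomes. Of these probe sets 6 stayed below 50 units in all groups. Cyp11a1, which cleaves the cholesterol side chain, was already at 111.4 ± 0.6 units (SD, n = 3) on 17-day polysomes and at 611.4 ± 405 in adults. The part of Leydig cell RNA in the polysome side was not tested. The summed signal of epididymis and accessory gland markers was 998.5 to 1348 units on 22-day polysomes, 4383.3 to 5108.5 on adult polysomes and 1336.3 to 1874.4 in adult RNPs. Ptgds, which is on this list and on the Leydig list, averaged 1935.9 and 718.6 units on adult polysomes by its probe sets, and Lcn2 averaged 1213.2; the rule leaves out both genes. Without them, a choice made after seeing the data, the epididymal sum was 827.1 to 962.8 units on adult polysomes and 869.5 to 1203.4 on 22-day polysomes. The Leydig sum without Ptgds was 7097.9 to 11738.6 units on adult polysomes and 3314.5 to 5234.3 on 22-day polysomes. Of its 24 tested probe sets, 16 were higher on polysomes, Agt and Apoc1 included. The rule leaves out Agt and Apoc1 too, but this sum kept them, at means of 387.6 and 482 units on adult polysomes. The epididymal genes Gpx5 (21.1 units), Lcn5 (3.93) and Adam7 (4.83) were near background on adult polysomes, and 19 of the epididymal list's 27 probe sets were below 50 units in all groups. Sertoli cell markers, of the somatic cells inside the tubules, also lay there, with 18 of 23 tested probe sets higher on polysomes, 1 higher in RNPs and a median of -1.86. Of 21 for peritubular, smooth muscle and stroma genes, 9 were higher on polysomes and 1 in RNPs (median -0.31).

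**Figure D4:**
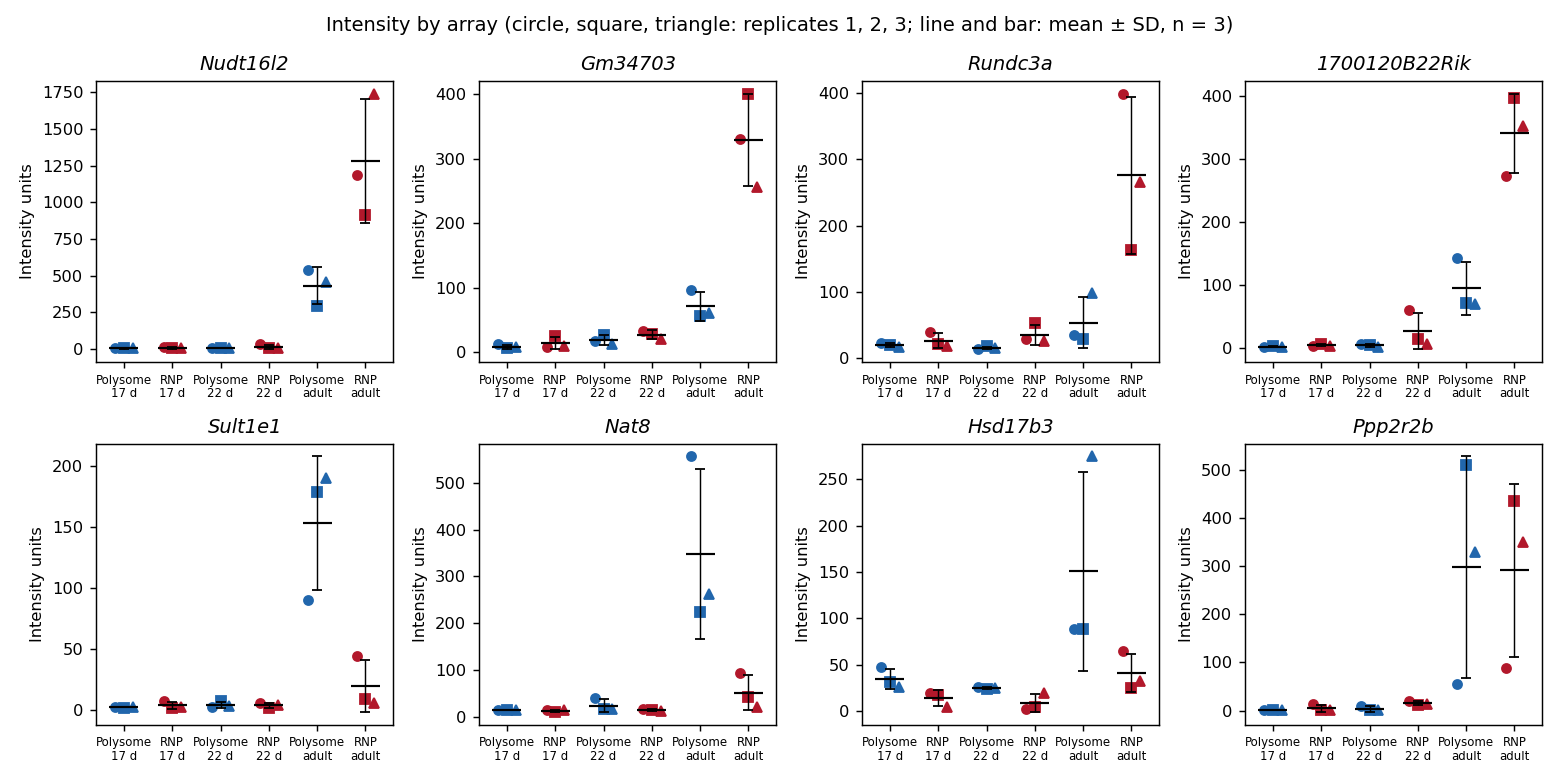
Intensity of 8 members in each array by fraction and age, with the mean and SD of 3 arrays. Nudt16l2, Gm34703, Rundc3a and 1700120B22Rik are higher in adult RNPs (red) and Sult1e1, Nat8 and Hsd17b3 on adult polysomes (blue), while the low adult arrays of Ppp2r2b are replicate 1 of both fractions.

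Of 8 members that act in protein turnover, phosphorylation or transcription, 3 were higher in RNPs and 5 did not pass, which does not show equal levels. Over all tested probe sets, 12.6% were higher in RNPs and 25.9% on polysomes. The 3, Ctdsp2, Hoxc9 and Zic5, reached 150 units only in RNPs. Skp2 (1449293_a_at), the substrate subunit of a ubiquitin ligase that drives the cell cycle, was at 217.6, 358.3 and 590.2 units in RNPs and 293.8, 459.6 and 553.8 on polysomes (-0.22 ± 0.31, adjusted p = 0.598). Ube2g2, a ubiquitin-conjugating enzyme of protein quality control, was at 368.2, 233.7 and 202.6 units in RNPs and at 280.5, 162.5 and 269.5 on polysomes (0.16 ± 0.28, adjusted p = 0.685). For both the ranges overlapped widely. Ppp2r2b, a regulatory subunit of protein phosphatase 2A, was at 89.4, 434 and 350.2 units in RNPs and at 54.7, 510 and 328.6 on polysomes (0.15 ± 0.57, adjusted p = 0.859). Its replicates differed far more than its fractions, replicate 1 being lowest in both. Hdac11, a histone deacetylase, was at 217.9, 131.9 and 128.2 units in RNPs and at 196.4, 145.5 and 129 on polysomes (0.0014 ± 0.28, adjusted p = 0.997), with overlapping ranges.

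Ctdsp2, a phosphatase acting on RNA polymerase II, was at 178.2, 86.5 and 215.6 units in RNPs and at 59.8, 19.2 and 107.1 on polysomes (1.28 ± 0.43, adjusted p = 0.024), higher in RNPs in each pair. The transcription factor genes Hoxc9 (1.38 ± 0.33, adjusted p = 0.00321) and Zic5 (1.14 ± 0.24, adjusted p = 0.00121) were higher in RNPs with no overlap of the arrays. Synj2, a phosphoinositide phosphatase, had every polysome array above every RNP array but did not pass (-0.92 ± 0.42, adjusted p = 0.0897; 0.0312 with the pair as a block).

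Of 5 cytoskeletal members, Zfp185, an actin-binding LIM protein gene, was higher in RNPs (0.82 ± 0.30, adjusted p = 0.0383), where alone it reached 150 units. Map7 (0.21 ± 0.27, adjusted p = 0.568), a microtubule protein, and Knstrn (-0.28 ± 0.28, adjusted p = 0.462), of the mitotic spindle and kinetochore, did not pass. The neuronal microtubule protein gene Map2 (0.86 ± 0.49, adjusted p = 0.175) and the actin-severing gelsolin gene Gsn (-1.13 ± 0.62, adjusted p = 0.158) passed only with the pair as a block (0.0323 and 0.0012) or without a single array, RNP array 1 for Map2 (0.0162) and polysome array 3 for Gsn (0.0308).

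Several members are best known from nerve or blood, and 6 of these 9 membrane, nerve and plasma protein genes were higher in RNPs. The share over all tested probe sets was 12.6%. Rundc3a, Cntn1, Hapln2, Nrgn and Proc reached 150 units only in RNPs and F5 only on polysomes, so the rule helped to choose their side. Rundc3a (1449246_at), which codes for an effector of small GTPases in neurons, was at 399.4, 162.5 and 266.3 units in RNPs and at 33.8, 28.2 and 97.6 on polysomes, 4.41-fold higher in RNPs (2.14 ± 0.35, adjusted p = 0.000134). Cntn1, a neuronal adhesion molecule, was at 155.4, 247.3 and 251.6 units in RNPs and at 50.4, 70.9 and 70 on polysomes (1.54 ± 0.25, adjusted p = 0.000138). Hapln2, a link protein of brain matrix, was at 187.1, 170.2 and 145.5 units in RNPs and 78.9, 30.2 and 30.7 on polysomes (1.64 ± 0.29, adjusted p = 0.000306). The fractions of all 3 genes were apart.

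Retreg1, a receptor for the autophagy of endoplasmic reticulum, was at 422.1, 742 and 454.2 units in RNPs and at 234.9, 220 and 121.2 on polysomes (1.42 ± 0.33, adjusted p = 0.00231). The calmodulin-binding neurogranin gene Nrgn (1.40 ± 0.42, adjusted p = 0.0141) and Proc, the anticoagulant protein C (0.91 ± 0.20, adjusted p = 0.00171), were also higher there. F5, coagulation factor V, lay on the other side, at 141.4, 331.1 and 186.6 units on polysomes and 55.3, 127.6 and 70 in RNPs (-1.22 ± 0.32, adjusted p = 0.00556), with no overlap. Eva1c (0.68 ± 0.32, adjusted p = 0.0974) and Rusc2 (-0.87 ± 0.50, adjusted p = 0.179) passed only in some settings, the pair as a block (0.0279 and 0.0179) among them. They also passed without RNP array 2 (Eva1c, 0.0345) and without polysome array 3 (Rusc2, 0.0187).

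Leaving out each adult array in turn kept 14 of the 23 RNP calls and 3 of the 6 polysome calls. The polysome calls that held were those of F5, Nat8 and Sult1e1. Among the RNP members, Ctdsp2 lost its call without RNP arrays 1 (adjusted p = 0.0712) or 3 (0.102) or polysome array 2 (0.157), and Osgin1 without the same arrays (0.0515, 0.0838 and 0.106). Nrgn lost it without polysome array 3 (0.0849). Uqcr10 lost it without RNP arrays 1 (0.0674) or 2 (0.138) or polysome array 3 (0.126), Prss58 without RNP array 2 (0.13) or polysome arrays 1 (0.0762) or 3 (0.0644), and Zfp185 without RNP arrays 2 (0.185) or 3 (0.0675) or polysome arrays 1 (0.0521) or 3 (0.234). Septin4 lost it without RNP arrays 1 (0.104) or 3 (0.143) or polysome arrays 1 (0.0612) or 2 (0.144). Cyp2a12 lost it without any array except polysome array 1 (0.067 to 0.181), and Wbscr25 without any except RNP array 2 (0.055 to 0.181). On the polysome side Prdx4 lost its call without RNP arrays 1 (0.1) or 3 (0.133) or polysome array 2 (0.294), and Prdx2 also without RNP array 3 (0.171).

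Replicate arrays of the same adult fraction differed by a median factor of 1.82 between the highest and lowest array in RNPs and 2.12 on polysomes, over the 42 members. For the 6309 named probe sets at 150 units or more the factors were 1.81 and 1.74. In 21 members (50%) the same replicate number was highest in both fractions, against 66% of the 6309. Membership rested on single arrays in part. Without adult replicate 1 the rule gave 40 probe sets, 36 of them members, and lost 1190005I06Rik, Gsn, Hdac11, Prdx2, Rusc2 and Tnp1. Without replicate 2 it gave 35, with 34 members, and without replicate 3 it gave 41, with 38 members. Just above the adult minimum were Hsd17b3 (150.6 units), Tnp1 (151.2), Sult1e1 (153.1) and Prss58 (154.2), and just below it Vcam1 (147.1), Mgst2 (143.6), Pip5kl1 (142.4) and Neurl1a (134). Just inside the early limit were Prdx4 (49.9), Car2 (49.2), Ctdsp2 (48.5) and Hdac11 (48.2), and just outside Trim54 (50.3), Spertl (50.4), Fez1 (50.5) and Cpxm1 (50.8).

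Other probe sets of the same genes, which the rule did not use, often showed the gene before adulthood. Of the 42 genes, 24 had a further probe set, 40 in all, and in 18 of these 24 genes at least 1 of them reached 50 units at 17 or 22 days. In 8 genes it reached 150. The name "first seen in adult testes" therefore holds for these probe sets and not for all of their genes. A further Tnp1 probe set (1415924_at) averaged 2.5 units in 17-day RNPs, 821.3 in 22-day RNPs, 6002.9 in adult RNPs and 3607.4 on adult polysomes. A further Septin4 probe set (1448729_a_at) averaged 20.6, 141.5 and 395.6 units in RNPs at 17 days, 22 days and in adults. For Prdx2, Prdx4, Uqcr10, Ube2g2, Ctdsp2 and Map7 another probe set averaged over 150 units at 17 days already, such as 1359.4 units on polysomes for Prdx2 (1418506_a_at) and 734.3 in RNPs for Uqcr10 (1424364_a_at). For Rundc3a, Prss58, Knstrn, Zic5, F5 and Cntn1 the other probe sets stayed below 50 units early, and the remaining 18 genes have a single probe set. Of the member probe sets, 10 carry the suffix _a_at, which marks probes shared by transcript forms of a gene, and 3 carry _x_at and 1 _s_at, which mark probes that may match other sequences.

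**Figure D5:**
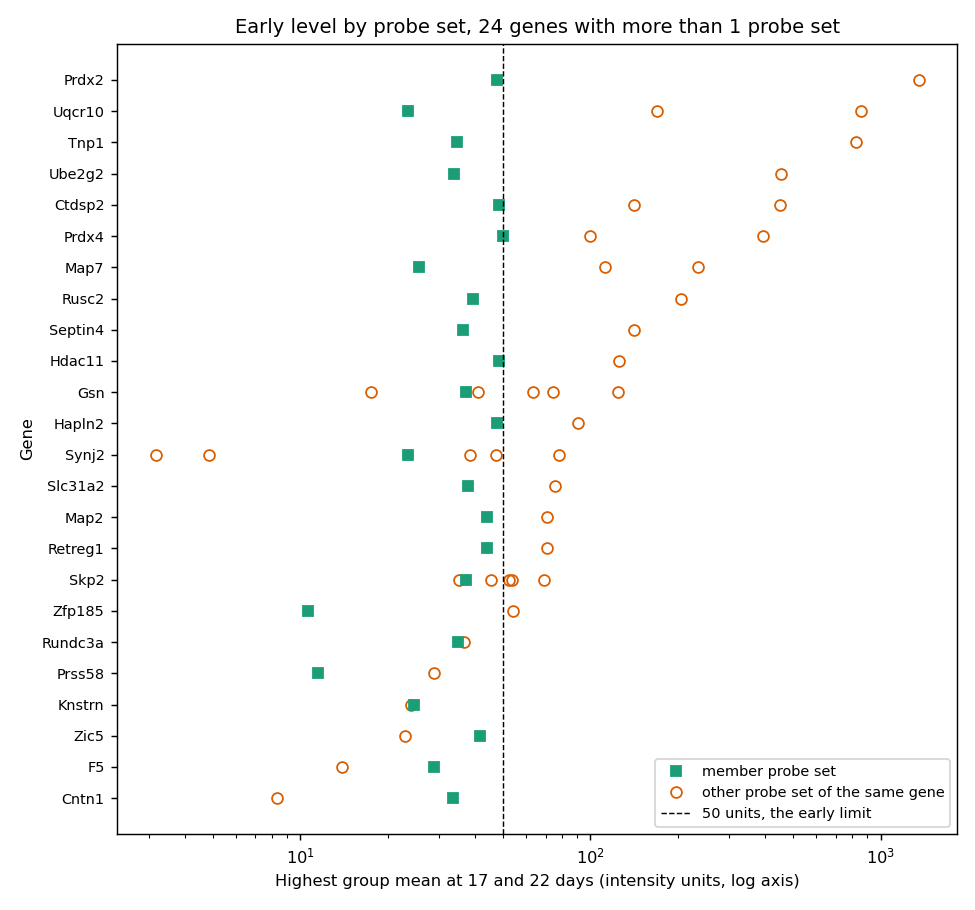
For the 24 genes with further probe sets, the highest group mean at 17 and 22 days of the member probe set (green squares, below 50 units by the rule) and of each other probe set (open orange circles), on a log axis. In 18 genes at least 1 circle lies to the right of the dashed line at 50 units.

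These further probe sets also gave a separate reading of the adult fractions. Of 13 tested ones for 10 members with a call, 6 had the same call, 5 did not pass and 2 had the opposite call. Same-side calls were made for Rundc3a (0.77 ± 0.27), Hapln2, Ctdsp2, Uqcr10 (both further probe sets) and Prdx2, which on 1418506_a_at was at 1401.5, 676.8 and 767 units on polysomes and at 294.6, 141.9 and 111.4 in RNPs (-2.32 ± 0.34, adjusted p = 5.52e-05). For Map2, whose member probe set did not pass, 1421328_at was at 118.6, 347.3 and 223.6 units in RNPs and at 48.4, 94.4 and 87 on polysomes (1.34 ± 0.31, adjusted p = 0.00224). Probe sets of a gene disagreed for Ctdsp2, where 1423661_s_at lay in RNPs (0.74 ± 0.21) and 1451075_s_at on polysomes (-0.97 ± 0.25, adjusted p = 0.00503), and for Zfp185, where 1420944_at lay on polysomes (-0.70 ± 0.23). For Retreg1 and Slc31a2, both higher in RNPs on the member probe set, the further probe set did not pass and lay below 0 (-0.37 ± 0.26 and -0.39 ± 0.29). Septin4 did not pass on 1448729_a_at (0.80 ± 0.39, adjusted p = 0.114). Prdx4 did not pass on 1416167_at (-0.83 ± 0.37, adjusted p = 0.0796) or 1435731_x_at (-0.15 ± 0.25, adjusted p = 0.679). The signs for Septin4 and Prdx4 were those of their member probe sets. Gsn, which did not pass, was higher on polysomes on 3 of its 4 further tested probe sets, and Skp2 on 2 of 3. Synj2, which did not pass either, was higher on polysomes on 1427685_a_at (-0.73 ± 0.23, adjusted p = 0.0165). On 1452344_at it did not pass (-0.16 ± 0.20, adjusted p = 0.548). Ube2g2 did not pass on its member probe set and was higher on polysomes on 1417032_at (-1.19 ± 0.29, adjusted p = 0.00374).

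Lists of other germ cell genes, grouped by function, differed in their split, against the 12.6% and 25.9% of all tested probe sets. Of 32 tested probe sets for acrosome and sperm surface genes, 13 were higher in adult RNPs and 0 higher on polysomes by limma, also at an unadjusted p under 0.05 (median 0.60). Of 14 for sperm ion channels and transporters, 8 were higher in RNPs and 1 on polysomes (median 0.77). Of 28 for germ cell energy metabolism, 8 were higher in RNPs and 0 on polysomes by limma, with 2 on polysomes at an unadjusted p under 0.05 (median 0.32).

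Other spermatid lists, except that of chromatin condensation, had RNP shares above the 12.6% of all tested probe sets. These lay near the 20.4% of named probe sets at 150 units or more in an adult fraction, a level that the lists did not require. For the sperm tail, 6 of 30 were higher in RNPs and 1 on polysomes (median 0.31), for spermatid kinases and phosphatases 7 and 4 of 36 (median 0.13), and for the spermatid cytoskeleton and head shaping 6 and 5 of 35 (median 0.38). For the ubiquitin pathway and proteolysis of spermatids, 8 of 36 were higher on each side (median -0.13). Of 12 for chromatin condensation, 0 passed by limma in either direction, also at an unadjusted p under 0.05 (median 0.28). This does not show equal levels, since the model takes each probe set's spread from all 6 groups. At 22 days this list's summed signal ran from 1186.1 to 13387.7 units in RNPs. In adults the sum was 42366.2 to 52202.7 units in RNPs and 34233.3 to 39107.6 on polysomes, without overlap.

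Germ cell RNA-binding and translation control genes and meiotic genes had more polysome calls. They had 5 of 39 higher in RNPs and 17 on polysomes (median -0.55) for the former, and 2 and 10 of 22 (median -0.65) for the markers of meiotic spermatocytes. Of markers of fat, 2 of 8 tested probe sets were higher in RNPs and 1 on polysomes, and of blood, vessel and macrophage markers 2 and 1 of 18, with 30 of the latter list's 49 probe sets below 50 units in all groups. Epididymis and accessory gland markers had 1 and 4 of 8.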

How the data were processed

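RNA of the RNP and polysome fractions of mouse testes at 3 ages was measured on 18 Affymetrix arrays of 22690 probe sets, with biotinylated RNA per the labels' protocols. The authors deposited 1 linear intensity per probe set and array, for which the submitters' processing notes name MAS5. Its version and scaling were not given in the sources used here. Values were used as deposited, since array medians differed by a factor of 1.39, and analysed as log2(value + 15.4), the 25th percentile of all values. Fold differences are those of values with 15.4 units added. The added units understate changes of low values. Control probe sets were left out, and tests were limited to the 14066 probe sets above 51.6, the 50th percentile, on at least 3 arrays. Genes are named from the platform annotation, and all 42 members were found by Entrez ID in RefSeq (GRCm38.p6) under the same symbol. With arrays, their number limits the precision.

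All 18 arrays entered a limma 3.58.1 model (R 4.3.3) of 6 groups with a variance trend (12 residual and 6.52 prior degrees of freedom). The contrast was adult RNP minus polysome, two-sided, with Benjamini-Hochberg adjustment over all tested probe sets at 0.05. Errors of log2 differences are SE of this model. The fit was tested on simulated data. Deviations of same-numbered arrays of an age correlated at 0.198 to 0.586 between the fractions in all 9 pairs. For RNP replicate 1 of 17 days, the correlation with another replicate's polysome array was higher (0.346, against 0.311 with its own). The model of 6 groups left pairing out, so its counts, SE and adjusted p are unpaired. A fit with the pair as a block was an alternative, and is given where it changes a call. The members, the gene lists, the role groups and the tests were chosen with earlier results of these data known. Full values are given for the 12 members with the highest adult mean, for up to 8 per side with the largest called difference and fractions that do not overlap, for members on a fixed list and for those next to a limit of the rule. The other members have 1 value or more by role. Alternatives were other pseudocounts, scalings, filters and fits, left-out arrays and other limits of the rule.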

Additional observations from a re-analysis of the deposited data

How the results depend on the processing

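The count of members on each side kept within a factor of 1.5 under most alternatives. In RNPs it was 22 to 24 under both quantile normalizations, median centring, no filter, no variance trend, the pseudocount at the 50th percentile and the replicate block, and 17 to 20 without each adult array in turn, against 23. It fell to 14 with a pseudocount of 1 and to 15 with only the 6 adult arrays. With the filter at the 75th percentile it was 7, as only 13 members were then tested, and 1 member was called on polysomes. The polysome count was 6, rose to 10 with the replicate pair as a block and ran from 4 to 8 without each adult array in turn. With adult replicate 1 and 17-day replicate 2 left out in both fractions the counts were 18 and 5. In all, 13 RNP calls and 3 polysome calls held in every alternative that tested them. The number of member probe sets, 42, moved to 71 with an early limit of 60 units, to 21 with an adult minimum of 180, to 10 when both adult fractions had to reach 150, and to 9 when every array had to be past its limit. It was 35 to 41 without each adult replicate in turn. The 4 members whose difference changed sign did not pass in any alternative. Hdac11 turned to -0.00011 with a pseudocount of 1 and to -0.068 with the 4 arrays left out, and ran from -0.23 to 0.16 without single arrays. Ppp2r2b turned to -0.069 with the 4 arrays left out and ran from -0.72 to 0.80 without single arrays. Ube2g2 then ran from -0.082 to 0.33 and Skp2 from -0.57 to 0.12. The causes were not tested. With 3 arrays a group, differences of members near background in a fraction carry little precision.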
